A study of Mus musculus with 12 samples.

Results

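Glutathione is the most abundant small thiol of the cell, and its breakdown releases cysteine, glutamate and glycine. The 7 genes described here encode enzymes of that breakdown: Chac1, Chac2, Ggct, Ggt1, Ggt5, Ggt7 and Oplah. They are 7 of the 41079 genes in the deposited table of whole mouse embryos, and all 7 had enough reads to be among the 20771 genes tested. The set was assembled by function around Chac1, which was chosen by its measured difference between Mfsd12 knockout embryos and the others. The knockout differences of Chac1 are therefore given as values with no test, and its difference between heterozygous and wild-type embryos was tested. The other 6 genes were tested in all 3 comparisons, in a fit across all genes.

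Mfsd12 encodes a lysosomal membrane protein needed for the import of cysteine into the lysosome. RNA was sequenced from 12 whole embryos of timed matings between mice heterozygous for Mfsd12, collected from day 10.0 to day 11.0 after fertilization. Per the labels, 4 embryos were Mfsd12 knockout, 4 were heterozygous and 4 were wild-type, and no other allele, agent or treatment is named. How the allele was made, the strain, the litter and the stage of each embryo are not given. Each library is 1 embryo, and p-values set a difference between genotypes against the spread between embryos. The embryos also carry a number in their titles (4, 4.1b, 14, 15 or 18) whose meaning is not given. Number 18 was carried by wild-type 1, wild-type 2, heterozygous 1 and knockout 3. Number 4 was carried by wild-type 3, wild-type 4, heterozygous 4 and knockout 2, and number 14 by knockout 1 and the library labelled heterozygous 2. Knockout 4 alone carried number 15, and heterozygous 3 alone 4.1b. The main fit treats embryos that share a number as independent.

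Totals ran from 53133084 to 67977990 counted reads per library. Levels are given in CPM (read counts scaled by TMM to one common library size) and as CPM per kilobase of exon where genes are compared with each other. Mfsd12 read 12.7, 16.2, 9.48 and 9.38 CPM in the wild-type embryos and 3.22, 2.78, 3.57 and 2.31 CPM in the knockouts. The heterozygous libraries read 8.84, 2.58, 6.03 and 5.91 CPM. The library labelled heterozygous 2, at 2.58 CPM, thus lay inside the knockout range and against its label. Which exons the allele lacks is not stated, and Mfsd12 shares 695 exon bases with the antisense gene Tektip1, whose reads the unstranded counting cannot separate. All 10 whole-embryo markers, from brain, heart, somite, gut and limb, were detected.

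Glutathione is broken down at 2 places. In the cytosol, the ChaC enzymes cleave the γ-glutamyl bond of glutathione and release pyroglutamate and the dipeptide cysteinylglycine. Outside the cell, γ-glutamyl transpeptidases on the plasma membrane remove or transfer the γ-glutamyl group, and dipeptidases then free cysteine for uptake. γ-Glutamylcyclotransferase, encoded by Ggct, turns γ-glutamyl amino acids into pyroglutamate, and the oxoprolinase encoded by Oplah turns pyroglutamate into glutamate. In mouse, the Chac1 protein has also been described as an inhibitor of Notch1 processing.

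Chac1 and Chac2 encode the inducible and the constitutive cytosolic enzyme of this pair. Chac1 lies on the plus strand at chr2:119181723-119184807 and Chac2 on the minus strand at chr11:30926707-30936365 (both GRCm39).

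Chac1 was low in wild-type embryos and many times higher in every knockout. The wild-type embryos gave 52, 46, 14 and 32 reads, or 0.895, 0.667, 0.210 and 0.556 CPM. The knockouts gave 1814, 1786, 280 and 976 reads, or 33.1, 29.6, 4.27 and 14.96 CPM. The lowest knockout, knockout 3, still lay above every embryo of the other genotypes, and the knockouts spread widely among themselves. The heterozygous libraries read 1.06, 1.5, 0.311 and 0.491 CPM, the highest of them being the one labelled heterozygous 2.

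The mean was 20.5 ± 13.4 CPM in knockouts, against 0.582 ± 0.286 in wild-type and 0.842 ± 0.544 in heterozygous embryos (SD, n = 4 each). The means differed 35.2-fold from wild-type and 24.4-fold from heterozygous, with fitted log2 differences of 5.14 and 4.61. Leaving out 1 embryo at a time kept these between 4.81 and 5.49 and between 4.29 and 5.02, the last value being the one without the library labelled heterozygous 2. These contrasts chose the gene and carry no test. Beside them, 1.6% of all tested genes had every knockout above every wild-type embryo and 1.51% every knockout above every heterozygous one. Heterozygous embryos did not differ detectably from wild-type in Chac1 (log2 fold change 0.53 ± 0.63 SE, edgeR adjusted p = 1), and without the library labelled heterozygous 2 the value was 0.12. The 2 knockout comparisons share the knockout embryos, and 2 of the 3 comparisons share the wild-type ones.

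The difference was present inside each title number that allows a look, but its size varied. Among embryos numbered 4, knockout 2 had 29.6 CPM against a mean of 0.383 in 2 wild-type embryos, a log2 difference of 6.29 with a prior count of 2. Among those numbered 18, knockout 3 had 4.27 against 0.781, a log2 difference of 2.42. Knockout 1, numbered 14, had 33.1 against 1.5 in the library labelled heterozygous 2, a difference of 4.44. Each holds 1 knockout, so none can be tested. With the title number as a block the fitted log2 difference from wild-type was 4.89, and with an expression-based stage index as a covariate it was 4.73. Knockout 4, the only embryo numbered 15, adds nothing to the block fit, and knockout 1 shares its number with no wild-type embryo.

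**Figure D1:**
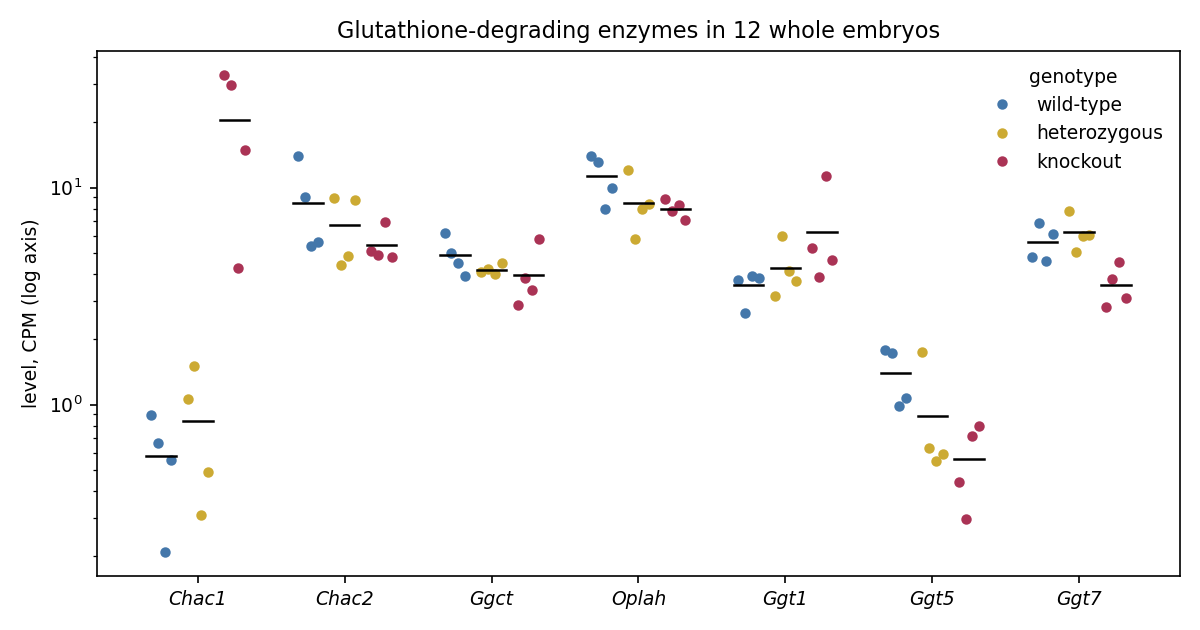
Levels of the 7 enzymes in every embryo, in CPM on a log axis, with the genes side by side, 1 point per embryo coloured by genotype, and a line at each genotype mean. The 4 knockouts lie between 4.27 and 33.1 CPM of Chac1 and above all other embryos, while for the other genes the points of the genotypes lie within a narrower range.

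Chac2, the constitutive relative, had its highest values outside the knockouts. Wild-type embryos read 13.9, 9.01, 5.37 and 5.63 CPM, heterozygous libraries 8.97, 4.39, 4.86 and 8.72, and knockouts 5.08, 4.87, 6.96 and 4.80. The genotypes overlap, and the wild-type spread rests largely on wild-type 1. The log2 difference of knockout from wild-type was -0.64 ± 0.34 (SE, edgeR adjusted p = 0.623), and it was -0.30 without wild-type 1. Against heterozygous embryos it was -0.31 ± 0.33 (edgeR adjusted p = 0.828).

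The ratio of the pair turned over in 3 knockouts. Per kilobase, the ratio of Chac1 to Chac2 ran from 0.0331 to 0.0837 in wild-type and from 0.0477 to 0.289 in heterozygous libraries. In knockouts it was 5.53, 5.15, 0.521 and 2.64. Knockout 3 alone kept more Chac2 than Chac1 RNA, and it also had the highest Chac2 of the knockouts.

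Ggct and Oplah, the enzymes that handle γ-glutamyl amino acids and pyroglutamate downstream, had overlapping values in the 3 genotypes, and neither passed the adjusted test. Ggct lies at chr6:54962080-54969947 on the minus strand (GRCm39). It read 6.20, 4.999, 4.51 and 3.89 CPM in wild-type embryos, 4.08, 4.204, 3.98 and 4.47 in heterozygous libraries, and 2.87, 3.81, 3.36 and 5.79 in knockouts. Knockout 4 was the second highest of all 12 embryos and knockout 1 the lowest, so the genotypes overlap. The log2 difference of knockout from wild-type was -0.31 ± 0.25 (SE, edgeR adjusted p = 0.729) and from heterozygous -0.080 ± 0.25 (edgeR adjusted p = 0.945).

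Oplah, at chr15:76180803-76215381 on the minus strand (GRCm39), read 14.05, 13.2, 7.94 and 9.90 CPM in wild-type embryos. Heterozygous libraries read 12, 5.77, 7.97 and 8.37, and knockouts 8.84, 7.79, 8.27 and 7.11. The 3 highest values, wild-type 1, wild-type 2 and heterozygous 1, all carried title number 18. The log2 difference of knockout from wild-type was -0.49 ± 0.24 (SE, edgeR adjusted p = 0.616), and -0.070 with the stage index as a covariate. Against heterozygous embryos it was -0.092 ± 0.24 (edgeR adjusted p = 0.934). Oplah shares 236 exon bases with Exosc4 and 179 with Smpd5 on the opposite strand, so part of its reads may be theirs. The other 6 genes share no exon base with another gene.

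The transpeptidase family was represented by 3 genes, none of which passed the adjusted test. Ggt1 encodes the main γ-glutamyl transpeptidase of the cell surface, Ggt5 a relative that acts on leukotriene C4 as well as glutathione, and Ggt7 a related protein whose enzymatic activity is less established. Ggt1 and Ggt5 are neighbours on the plus strand of chromosome 10, at chr10:75396910-75422027 and chr10:75425161-75453034 (GRCm39). Ggt7 lies at chr2:155332299-155356921 on the minus strand.

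Ggt7 had its 4 lowest values in the knockouts. Wild-type embryos read 4.80, 6.90, 4.58 and 6.08 CPM, heterozygous libraries 7.82, 5.07, 5.99 and 6.03, and knockouts 2.81, 3.78, 4.55 and 3.10. All 4 knockouts lay below all 8 other embryos, by a margin of 4.55 to 4.58 CPM at the closest pair. The log2 difference from wild-type was -0.65 ± 0.23 (SE, edgeR adjusted p = 0.546), or 1.57-fold less. Against heterozygous embryos it was -0.81 ± 0.23 (SE, edgeR adjusted p = 0.601), and -0.89 without the library labelled heterozygous 2. Neither passed the adjusted threshold of 0.05, and a fit with an expression-based stage index gave -0.37 and -0.57. The adjusted p from wild-type was 0.208 with DESeq2 and 0.288 with limma voom. Against heterozygous embryos it was 0.0834 with DESeq2 and 0.0993 with limma voom, still above the threshold. Within title numbers, the log2 difference from wild-type was -0.48 for number 4 and -0.34 for number 18.

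Ggt5 was the least abundant transpeptidase. It read 1.79, 1.72, 0.988 and 1.08 CPM in wild-type embryos, 1.75, 0.634, 0.548 and 0.593 in heterozygous libraries, and 0.438, 0.298, 0.718 and 0.797 in knockouts. Every knockout lay below every wild-type embryo, but the heterozygous libraries spanned both. The log2 difference of knockout from wild-type was -1.30 ± 0.47 (SE, edgeR adjusted p = 0.545), or 2.48-fold less. Against heterozygous embryos it was -0.65 ± 0.46 (edgeR adjusted p = 0.749), and -0.054 without heterozygous 1, which carried the high value. Within title numbers 4 and 18 knockouts lay below wild-type by log2 differences of -1.68 and -1.25, and the fit with the stage index gave -0.90. Wild-type 1, wild-type 2 and heterozygous 1, all of title number 18, had the highest sums of macrophage markers and the highest Ggt5. They also had the highest stage indices of all embryos. The macrophage markers did not follow Ggt5 throughout. Their summed level was 123, 102, 54.8 and 47.9 CPM in wild-type and 107, 54.5, 43.9 and 54.2 in heterozygous libraries. In knockouts it was 51.7, 25.9, 76.6 and 7.40 CPM, and 0 of 8 markers passed the adjusted test. Knockout 4 had the lowest sum and the highest Ggt5 of the knockouts. The part of macrophage RNA in the Ggt5 values was not tested. Primitive erythroid markers were lower in knockouts than in wild-type at an unadjusted p under 0.05 for 6 of 7 genes, beside 4.08% of all genes. In that comparison 0 of 7 passed the adjusted test. Their sums overlapped, at 4601 to 16734 CPM in knockouts and 15713 to 73813 CPM in wild-type embryos. Endothelial markers summed to 165 to 279 CPM in wild-type and 232 to 287 in knockout embryos. Heterozygous libraries had 202 to 486 CPM of them, the highest being the one labelled heterozygous 2. In whole embryos, fewer cells of a type and less RNA per cell cannot be told apart.

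Ggt1 had its highest value in a single knockout. Wild-type embryos read 3.74, 2.65, 3.92 and 3.84 CPM, heterozygous libraries 3.16, 5.96, 4.13 and 3.71, and knockouts 5.26, 3.86, 11.3 and 4.61. Knockout 3, at 11.3 CPM, stood apart from the rest, and the lowest knockout lay among the wild-type embryos. The log2 difference of knockout from wild-type was 0.82 ± 0.33 (SE, edgeR adjusted p = 0.581), and it was 0.39 without knockout 3. Against heterozygous embryos it was 0.56 ± 0.33 (edgeR adjusted p = 0.718), 0.13 without knockout 3 and 0.77 without the library labelled heterozygous 2. Knockout 3 also had by far the most yolk sac endoderm RNA: the 10 markers summed to 4914 CPM there, against 81.5 to 104 in the other knockouts and 62.1 to 171 in wild-type embryos. Heterozygous 1 had 729 CPM of these markers and 3.16 CPM of Ggt1. The part of yolk sac RNA in the Ggt1 value was not tested. Of 5 kidney tubule markers, from the adult organ richest in Ggt1, only Lhx1 and Pax2 were abundant enough to test. These 2 summed to 2.86 to 6.26 CPM in wild-type and 1.97 to 5.95 in knockout embryos. The sum leaves out the other markers, so it is not a measure of tubule RNA as a whole.

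**Figure D2:**
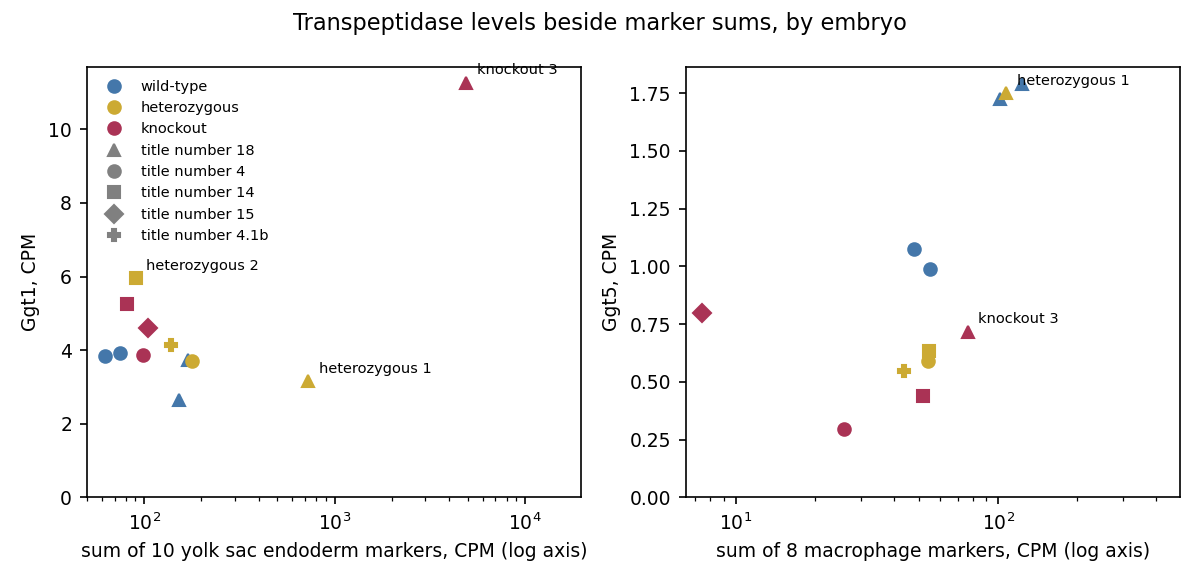
Ggt1 beside the summed yolk sac endoderm markers and Ggt5 beside the summed macrophage markers, in CPM, with 1 point per embryo coloured by genotype. Knockout 3 has both the most yolk sac marker RNA (4914 CPM) and the most Ggt1 (11.3 CPM). Wild-type 1, wild-type 2 and heterozygous 1, all of title number 18, have both the most macrophage marker RNA and the most Ggt5.

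Across the 6 tested genes, 0 passed the adjusted threshold in knockout against wild-type or knockout against heterozygous embryos, where 0% of all 20771 genes did. Mfsd12 itself, 4.02-fold lower in knockouts than in wild-type, did not pass either (edgeR adjusted p = 0.385). For heterozygous against wild-type, 0 of 7 passed, again beside 0% of all genes. DESeq2 and limma voom called 0 of these members as well. Over all genes, limma voom called 0 of 20771 in each comparison. DESeq2 called 122 of 18957 in knockout against wild-type and 74 of 20164 in knockout against heterozygous embryos. For heterozygous against wild-type it called 4 of 20567. At an unadjusted p under 0.05, 2 of the 6 genes were lower in knockout than wild-type (Ggt5 and Ggt7), where 4.08% of all genes were lower, and 1 was higher (Ggt1), where 4.25% were higher. Against heterozygous embryos 1 was lower (Ggt7), beside 3.79% of genes, and 0 were higher, beside 3.61%. Heterozygous embryos had 0 of 7 lower than wild-type (0.274% of genes) and 0 higher (0.732%). For heterozygous against wild-type the log2 differences of the enzymes other than Chac1 lay between -0.66 ± 0.46 (SE, Ggt5) and 0.26 ± 0.33 (Ggt1), and Ggt5 was -1.24 without heterozygous 1. Non-overlapping groups were found for 2 of the 6 genes lower in knockouts than in wild-type (Ggt5 and Ggt7; 1.82% of all genes) and 1 lower than in heterozygous embryos (Ggt7; 1.93%), and 0 of the 6 were higher in this way. Without the library labelled heterozygous 2, the log2 difference of knockout from heterozygous was -0.47 for Chac2, -0.079 for Ggct, -0.24 for Oplah and -0.78 for Ggt5.

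Per kilobase of exon, Chac2 was the most abundant of the enzymes in wild-type embryos and Ggt5 the least. The order in wild-type embryos was Chac2 at 6.38 ± 2.998 CPM per kilobase (SD, n = 4), Ggct at 3.36 ± 0.671, Oplah at 2.26 ± 0.570, Ggt7 at 1.86 ± 0.364, Ggt1 at 1.19 ± 0.200, Chac1 at 0.371 ± 0.182 and Ggt5 at 0.293 ± 0.0885. The ranges of neighbours in that order overlapped, except between Ggt7 and Ggt1 and between Ggt1 and Chac1. In knockouts Chac1 headed the order at 13.1 ± 8.53 CPM per kilobase, followed by Chac2 at 4.08 ± 0.774 and Ggct at 2.72 ± 0.880. In knockout 3, however, Chac1 at 2.72 CPM per kilobase lay under Chac2 at 5.23 and Ggt1 at 3.79.

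Chac1 therefore took a share of the summed RNA of the 7 enzymes that differed by genotype. Of the summed CPM per kilobase, Chac1 held 1.12% to 2.77% in wild-type embryos and 1.69% to 7.88% in heterozygous libraries. In the knockouts it held 67.1%, 64.3%, 15.7% and 44.8%. The sum of all 7 was 15.7 ± 4.32 CPM per kilobase in wild-type, 13.9 ± 2.37 in heterozygous and 24.9 ± 6.65 in knockout embryos (SD, n = 4 each). Here too the ranges overlapped, with 21.3 in wild-type 1 and 17.4 in knockout 3. Without Chac1 the other 6 summed to 15.3 ± 4.15 in wild-type, 13.3 ± 2.38 in heterozygous and 11.8 ± 1.999 in knockout embryos, with overlapping ranges. Over all 12 embryos the coefficient of variation was 164% for Chac1, 56.2% for Ggt5, 48.2% for Ggt1 and 41.0% for Chac2. It was 29.3% for Ggt7, 27.3% for Oplah and 21.8% for Ggct, the steadiest.

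**Figure D3:**
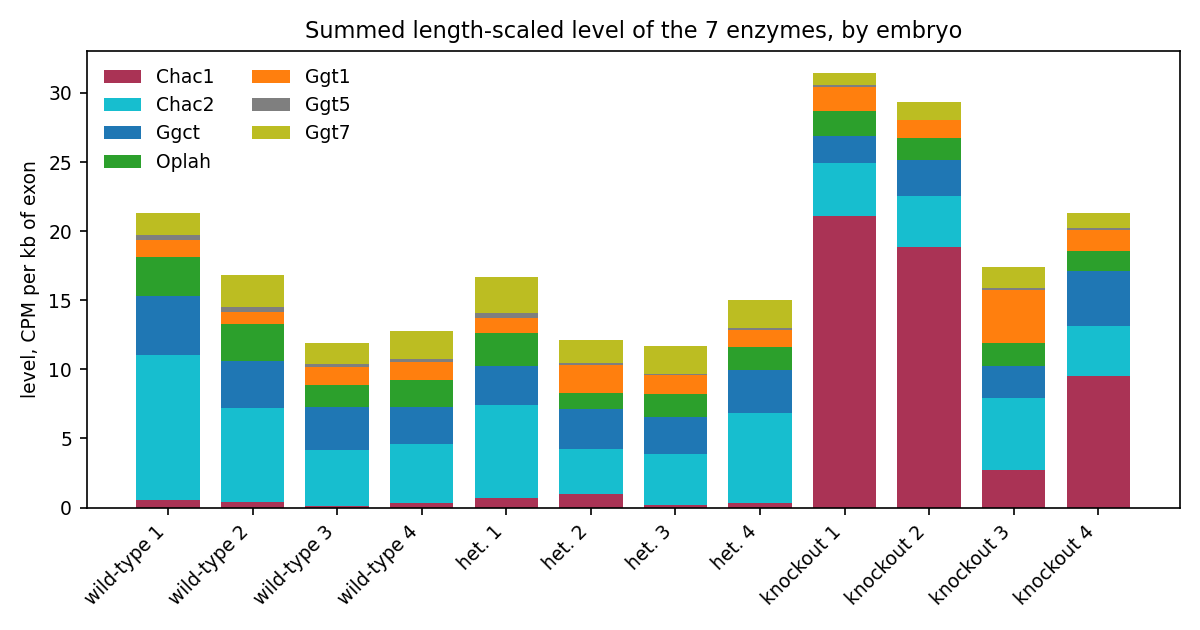
Summed level of the 7 enzymes in each embryo, in CPM per kilobase of exon, with each gene as a stacked segment. Chac1 is a thin segment in wild-type embryos (1.12% to 2.77% of the sum) and the largest one in knockout 1, knockout 2 and knockout 4.

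The gene whose log2 CPM was most like Chac1 over the 12 embryos, among 14016 genes compared, was Sesn2 (Pearson r = 0.943). Il4i1b (0.914), Jdp2 (0.907), Gli1 (0.898), Rpph1 (0.880) and Slc1a4 (0.877) followed. These embryos share genotype groups and title numbers, so the coefficients are descriptions only. None of the other 6 enzymes was among them, and Ggt7 was the most opposed of these 6 to Chac1 (r = -0.784). Their own closest genes were Lyrm2 (0.964) and Marchf2 (0.954) for Chac2, Ramp3 (0.859) and Cd24a (0.858) for Ggct, and Morc4 (0.913) and Ocln (0.911) for Ggt1. For Ggt5 they were Atat1 (0.904) and Samd3 (0.901), for Ggt7 Celf5 (0.949) and Mfng (0.931), and for Oplah Rab12 (0.964) and Habp4 (0.962).

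The genes that make glutathione or supply its cysteine were read from a list of 7. In knockout against wild-type 0 passed the adjusted test, and 2 were higher and 1 lower at an unadjusted p under 0.05. The median log2 difference was 0.55, beside 0.011 over all genes. It was 0.49 in heterozygous against wild-type embryos and 0.060 in knockout against heterozygous ones. Both values include the library labelled heterozygous 2, where the 7 genes summed to 633 CPM. The other heterozygous libraries had 172, 185 and 193 CPM, and wild-type embryos 168 to 207, so the heterozygous values do not describe the group evenly. Slc7a11, the cystine importer of the plasma membrane, had 9.83 ± 1.07 CPM in wild-type and 40.5 ± 35.9 in knockout embryos (log2 difference 2.04 ± 0.52 SE, edgeR adjusted p = 0.537). Cth, which makes cysteine from cystathionine, had 18.9 ± 1.60 and 67.5 ± 61.8 CPM. For both genes a library outside the knockouts was high: the one labelled heterozygous 2 had 27.8 CPM of Slc7a11 and 105 CPM of Cth. Gclm, the modifier subunit of the enzyme that makes γ-glutamylcysteine, was the lower one (28.1 ± 12.5 and 18.2 ± 4.54 CPM).

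The dipeptidases and other γ-glutamyl enzymes that act beside the 7 differed little. Of 9 in the list, 5 could be tested, 0 passed at either threshold in knockout against wild-type, and the median log2 difference was 0.15. Cndp2, a cytosolic dipeptidase that can split cysteinylglycine, had 83.0 ± 15.9 CPM in wild-type and 92.4 ± 23.0 in knockout embryos. Lap3 (leucine aminopeptidase) had 126 ± 16.1 and 140 ± 27.4 CPM, and Anpep (aminopeptidase N) 16.9 ± 2.35 and 13.8 ± 4.24 CPM.

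Of 23 enzymes that use glutathione, 0 passed the adjusted test in knockout against wild-type. Their log2 differences were negative for 19 and positive for 4, with a median of -0.29 beside 0.011 over all genes. At an unadjusted p under 0.05, 1 was higher (Gpx3, the secreted glutathione peroxidase, 82.2 ± 12.7 in wild-type and 196 ± 120 CPM in knockouts) and 2 were lower. The lower ones were Gpx1, the cytosolic peroxidase (363 ± 312 and 166 ± 34.1 CPM), and Gstk1, a glutathione transferase (14.8 ± 5.48 and 7.72 ± 3.56 CPM). Gpx1 read 822 CPM in wild-type 1, 292, 157 and 180 in the other wild-type embryos, and 115 to 185 in knockouts. Wild-type 1 also had the highest sum of the 23 enzymes, 2600 CPM. The other wild-type embryos had 1025 to 1444 CPM and the knockouts 1006 to 1479.

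Because Chac1 has been tied to Notch1, 19 Notch pathway genes were read as well. In knockout against wild-type 0 passed the adjusted test, 1 was higher at an unadjusted p under 0.05 and 0 were lower, and the median log2 difference was 0.079. The higher one was Jag1, a Notch ligand (34.3 ± 11.9 CPM in wild-type, 55.2 ± 15.9 in knockouts, log2 difference 0.69 ± 0.29 SE, edgeR adjusted p = 0.588). Hes7, a segmentation clock repressor, had 0.259 ± 0.134 and 0.639 ± 0.482 CPM, and Lfng, a Notch glycosyltransferase, 16.4 ± 0.998 and 19.3 ± 3.45 CPM.

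Genes that mark developmental stage also differed between embryos. A stage index, which sets 8 genes of later embryos against 8 of earlier ones as a difference of mean z scores, was 0.999, 1.83, 0.407 and -0.280 in wild-type embryos. It was 1.46, -1.24, 0.701 and 0.665 in heterozygous libraries and -0.741, -1.36, 0.412 and -2.85 in knockouts. Chac2, Oplah and Ggt7 had their highest values in embryos of high index. With this index in the fit, the knockout difference from wild-type was -0.086 for Chac2, -0.070 for Oplah and -0.37 for Ggt7, and 4.73 for Chac1. For Ggt5 it was -0.90. It grew for Ggct, from -0.31 to -0.52, and for Ggt1, from 0.82 to 0.88. The index was built from expression alone, and 3 of the 4 knockouts had a negative index, so stage and genotype cannot be told apart where they go together. Xist read 397 to 1745 CPM in all 4 heterozygous libraries, wild-type 2 and knockout 1, and at most 9.41 CPM in the others. Ddx3y ran the other way, at most 0.034 CPM where Xist was high and 44.8 to 75.1 CPM in the others. By these genes all 4 heterozygous libraries read as female, so comparisons with heterozygous embryos are confounded in part with sex. With Xist as a covariate the Chac1 difference of knockout was 5.02 from wild-type and 4.87 from heterozygous embryos.

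**Figure D4:**
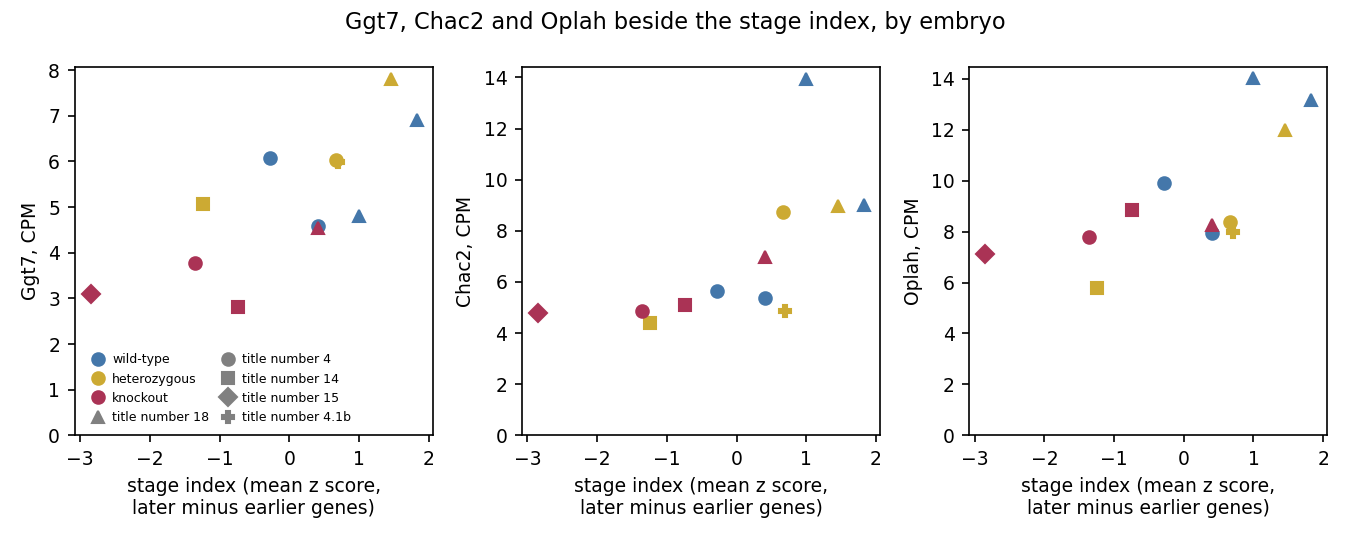
Ggt7, Chac2 and Oplah in CPM beside the stage index (mean z score of later minus earlier genes), with 1 point per embryo, coloured by genotype and shaped by title number. The highest value of each enzyme lies at a positive index, and 3 of the 4 knockouts had a negative index.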

How the data were processed

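The authors deposited a single gene table of estimated counts, unnormalized. Its header records featureCounts 2.0.6 run without strand, with each mate counted separately and reads of several places or genes split into fractions, per the file headers. The labels name a stranded mRNA kit, and the submitters' processing notes name GRCm39 and DRAGEN, without roles. Counts were rounded (17% were not whole), filtered with filterByExpr (minimum count 10) and scaled by TMM. Genes were tested with edgeR 4.0.16 quasi-likelihood fits under R 4.3.3, using all 12 embryos, two-sided, with Benjamini-Hochberg adjustment over 20771 genes and a threshold of 0.05. Each SE was derived from the F statistic. DESeq2 1.42.0 and limma 3.58.1 served as alternatives. The fit was tested on simulated data. Members, lists and tests were chosen with earlier results of these data known. Named genes were the members, Mfsd12, the 3 genes of each pathway list described with the smallest p in knockout against wild-type, and the genes most like each member. The kidney tubule markers that could be tested were named as well. The Xist and Ddx3y levels were named after their values were seen. Every pair of libraries differed by more than sampling noise (chi-square per gene at least 16.8). Embryos were numbered within genotypes, and the numbers pair nothing. Some results are not reported here.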

Additional observations from a re-analysis of the deposited data

Results flagged for a closer look

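Among the 21 groups of 4 embryos formed by the 7 enzymes and 3 genotypes, 3 held an embryo far from the other 3, as judged by the gap to the nearest embryo relative to the group's whole range, at Dixon's critical value. Chance marks about 1 in 20 such groups. Chac2 was 6.96 CPM in knockout 3, against 4.80 to 5.08 in the other knockouts, a gap of 0.870 of the range. Ggt1 was 2.65 CPM in wild-type 2, and the remaining wild-type embryos had 3.74 to 3.92, a gap of 0.853. Ggt5 was 1.75 CPM in heterozygous 1, against 0.548 to 0.634 in the other heterozygous libraries, a gap of 0.929.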

How the results depend on the processing

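Of the 21 log2 differences (7 enzymes in 3 comparisons), 17 kept their sign under all alternatives, and 4 changed sign in 8 of 336 alternative values. Among the differences that were tested, which leave out Chac1 in both knockout comparisons, 0 passed the adjusted threshold under these alternatives, the block for title number included. The sign changes were all of small differences, and the cause was not tested. With the stage index as a covariate, knockout against heterozygous became 0.16 for Chac2 and 0.28 for Oplah. For Chac2 in heterozygous against wild-type limma voom gave 0.23 and a block for title number gave 0.040. Leaving out 1 embryo at a time gave -0.32 to 0.057 for Ggct and -0.24 to 0.13 for Oplah in knockout against heterozygous, and -0.50 to 0.014 for Chac2 in heterozygous against wild-type. Chac1 had 14 to 73 reads in wild-type and heterozygous libraries, so its fold rests on few reads there. Over all genes, DESeq2 called 122 in knockout against wild-type, where edgeR called 0.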
